A study of Ovis aries with 36 samples.

Results

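ENSOARG00000009539 is 1 gene of the 27054 listed for 36 libraries of lamb brain, and it was chosen by its measured read counts, as one that is higher in the later arms of the study than in the preterm arm. Its levels and its differences from the preterm lambs are given below as a description, without a test. No symbol was found for any identifier of the table, so neither the position nor the function of the gene is given, and no brain cell type list could be read. Strand was not used in the counting, so reads from an overlapping or antisense neighbour cannot be told apart from its own.

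The study sampled 4 regions of the brain of 9 lambs (the cerebellum, hippocampus, basal ganglia and motor cortex), with 1 library for each region of each lamb. The 2 preterm lambs (H, female, and I, male) were examined at once after preterm delivery, and the 2 late preterm lambs (F and G, both male) at once after delivery at 127 days of gestation. The 5 supported lambs (A, B, D and E, female, and C, male) were also born preterm, were cannulated straight away and then lived on EXTEND until their age came close to that of the late preterm lambs. EXTEND is a system in which a preterm lamb lies in fluid and exchanges gas through an oxygenator. The labels name no drug or gene change in any arm, and the exact age of the preterm and supported lambs is not given in these sources.

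The 4 regions do different work in the brain. The motor cortex drives voluntary movement, the basal ganglia help to select movements, the cerebellum times and coordinates them, and the hippocampus serves memory. In sheep the late part of gestation is when cortical neurons extend and connect their processes and when oligodendrocytes begin to wrap axons in myelin, and many genes of the brain change their level in that window. All samples are pieces of bulk tissue, where fewer cells of a type and less RNA per cell cannot be told apart.

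Total counts ran from 8782652 to 18153142 per library. Lambs A, H and I had the 12 shallower libraries, with at most 13020225 counts, so depth and the preterm arm overlap. When each library was set against the mean profile of every region in the other 8 lambs, 9 libraries matched a region other than their own best. These were the hippocampus of lambs B, E, G, H and I and the basal ganglia of lambs A, F, G and I. All motor cortex and cerebellum libraries matched their own region best, though the cerebellum of lamb H did so only weakly, with r = 0.186 across genes, and those of lambs D and G followed at 0.528 and 0.655, against 0.787 to 0.889 in the other 6.

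The motor cortex was the region where the level of ENSOARG00000009539 followed the arms. The preterm lambs were at 1.67 CPM (the count scaled to a library total of 1000000) in lamb H and 0.591 CPM in lamb I. These rest on 20 and 6 reads, with exact 95% binomial intervals of 1.02 to 2.58 and 0.217 to 1.29 CPM, which here and below cover counting error only. The late preterm lambs were at 11.98 CPM (F) and 19.8 CPM (G). The supported lambs were at 17.4 (A), 27.2 (B), 10.1 (C), 22.9 (D) and 19.9 (E) CPM. All 7 later lambs lay above both preterm lambs, and the nearest values were 10.1 CPM in lamb C and 1.67 CPM in lamb H. Of 17450 genes that passed the filter on low counts, 9.21% showed the same lack of overlap in that direction. Since the choice of the gene used this contrast, nothing is read from that share.

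The means in the motor cortex were 1.13 ± 0.764 CPM (SD, n = 2) in the preterm, 15.9 ± 5.52 CPM (n = 2) in the late preterm and 19.5 ± 6.399 CPM (n = 5) in the supported lambs. The supported mean was 17.2 times and the late preterm mean 14.04 times the preterm mean. As edgeR log2 fold changes these are 4.11 ± 0.52 (SE) and 3.78 ± 0.55. Their ranks among 16173 genes, counted from the largest increase, were 22 and 19. Nothing is read from these ranks, since the same contrasts chose the gene. With preterm lamb I alone the supported value was 5.10, and with preterm lamb H alone it was 3.57, so the size depends on which of the 2 preterm lambs is used, while its direction was the same with either.

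Depth moved with this result. Over the 9 motor cortex libraries the correlation of log2(CPM + 1) with the log2 of the library total was 0.779, in points that share their arms. Within the shallower libraries, supported lamb A at 17.4 CPM was 10.4 times lamb H and 29.5 times lamb I, which is a comparison of single lambs. With depth group added to the fit, the log2 fold change over the preterm lambs was 3.93 for the supported arm and 3.56 for the late preterm arm. The depth term rests on lamb A against the other supported lambs, so these values are no check apart from lamb A. The likeness of the motor cortex libraries to the region profiles of the other lambs also moved with the gene, with r = 0.892 for likeness to the hippocampus, 0.741 to the motor cortex itself, 0.659 to the basal ganglia and -0.885 to the cerebellum. Likeness to the motor cortex was 0.528 and 0.421 in preterm lambs H and I and 0.567 to 0.783 in the 7 later lambs. Likeness to the hippocampus was 0.174 and 0.142 against 0.282 to 0.488. The part of these likenesses in the result was not tested.

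**Figure D1:**
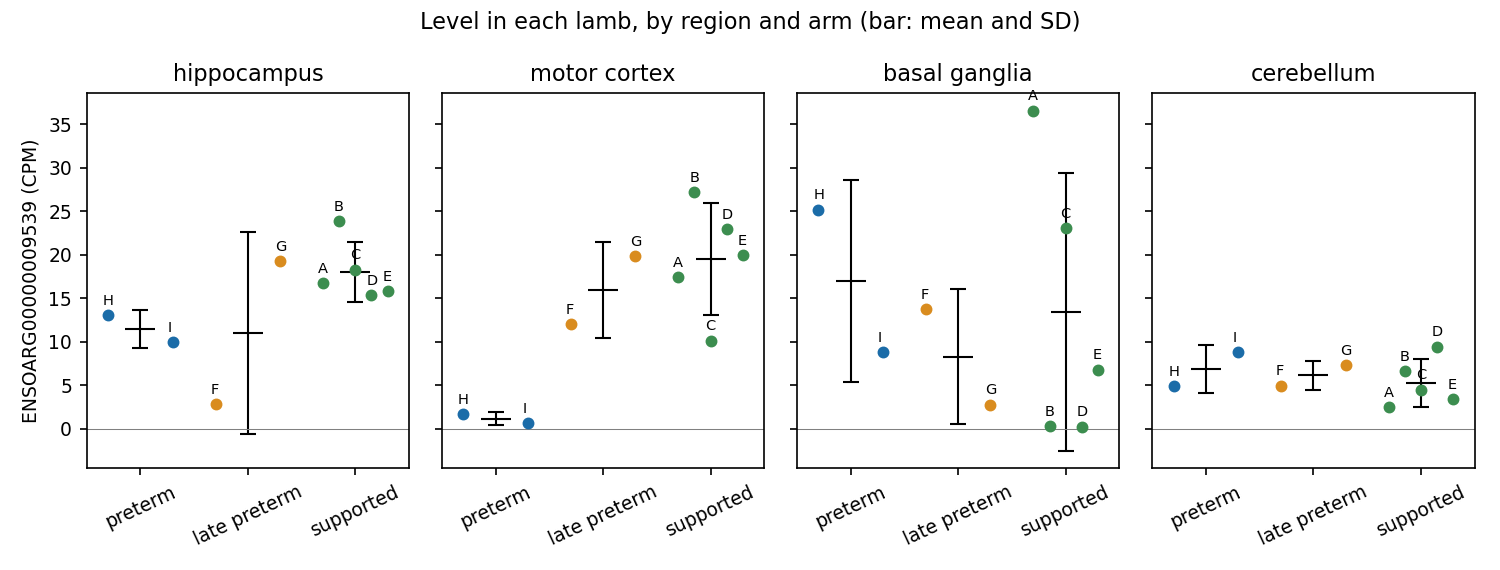
Level of ENSOARG00000009539 in CPM (vertical axis) in each lamb (points, with the letter of the lamb), by arm (horizontal axis) and region (panels); bars are the mean and SD of each arm, with 2 preterm, 2 late preterm and 5 supported lambs. The 2 preterm points lie apart from the rest, at 1.67 and 0.591 CPM, in the motor cortex panel only, and the supported points of the basal ganglia panel run from 0.223 to 36.6 CPM.

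The other 3 regions did not show a steady rise, so the name under which the gene was picked holds for the motor cortex and not for the brain as a whole. In the hippocampus the preterm lambs were at 13.0 (H) and 9.93 (I) CPM, the late preterm lambs at 2.79 (F) and 19.2 (G) CPM, and the supported lambs at 16.7 (A), 23.9 (B), 18.3 (C), 15.3 (D) and 15.8 (E) CPM. Every supported lamb and late preterm lamb G lay above both preterm lambs, and late preterm lamb F lay below both. The share of all genes with such a split in the hippocampus was not computed, so nothing is read from it. The supported mean of 18.0 ± 3.48 CPM (SD, n = 5) was 1.57 times the preterm mean of 11.5 ± 2.19 CPM (n = 2), while the late preterm mean of 11.01 ± 11.6 CPM (n = 2) was 0.96 times it. The edgeR log2 fold changes were 0.66 ± 0.58 (SE) for supported and -0.08 ± 0.67 for late preterm against preterm lambs. The late preterm value was 0.72 without lamb F and -2.06 without lamb G. The hippocampus of both preterm lambs was closer to the motor cortex profile than to its own. The level there was 7.79 (H) and 16.8 (I) times that in the motor cortex of the same lamb, and these ratios use values that chose the gene. The part of this likeness in the levels was not tested.

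In the basal ganglia the preterm arm had the highest mean, and the SD of the supported arm was larger than any difference between the means of the arms. The preterm lambs were at 25.1 (H) and 8.78 (I) CPM and the late preterm lambs at 13.7 (F) and 2.75 (G) CPM. The supported lambs were at 36.6 (A), 0.291 (B), 23.0 (C), 0.223 (D) and 6.78 (E) CPM. The means were 17.0 ± 11.6 CPM (SD, n = 2) in preterm, 8.24 ± 7.77 CPM (n = 2) in late preterm and 13.4 ± 16.0 CPM (n = 5) in supported lambs. The log2 fold change of the supported arm was -0.27 ± 1.52 (SE) and that of the late preterm arm -0.94 ± 1.86 against preterm lambs. The supported value turned to 0.05 without lamb B or lamb D, to 0.61 without lamb H and to 1.20 when the depth group was added to the fit. The depth term again rests on lamb A against the other supported lambs. Without the libraries that matched another region better the supported value was -1.64, with lamb H alone as the preterm arm.

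In the cerebellum the gene was low in every arm. The preterm lambs were at 4.90 (H) and 8.8 (I) CPM, the late preterm lambs at 4.92 (F) and 7.31 (G) CPM, and the supported lambs at 2.45 (A), 6.57 (B), 4.45 (C), 9.41 (D) and 3.38 (E) CPM. The 3 arms overlapped, with means of 6.85 ± 2.76 (SD, n = 2), 6.12 ± 1.69 (n = 2) and 5.25 ± 2.79 CPM (n = 5). The log2 fold changes were -0.50 ± 0.50 (SE) for supported and -0.33 ± 0.60 for late preterm against preterm lambs, and -1.65 for both when the depth group was added to the fit. Here too the depth term rests on lamb A against the other supported lambs. With lambs D, G and H left out, whose cerebellum libraries were least like that region, the log2 fold changes were -0.95 and -0.75.

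**Figure D2:**
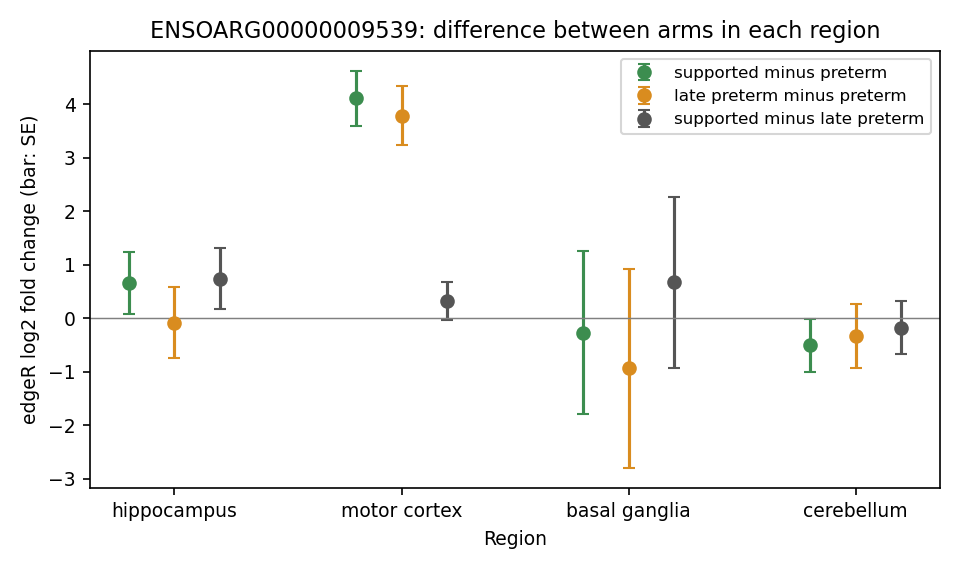
edgeR log2 fold change of ENSOARG00000009539 (vertical axis; bars are the SE) between each pair of arms in each region (horizontal axis). The differences of the supported and late preterm arms from the preterm arm are 4.11 and 3.78 in the motor cortex and between -0.94 and 0.66 in the other regions; the supported minus late preterm values lie between -0.18 and 0.74.

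Read counts of the 4 regions were also added up for each lamb. The preterm lambs were then at 11.5 (H) and 7.05 (I) CPM, the late preterm lambs at 8.47 (F) and 12.3 (G) CPM, and the supported lambs at 19.2 (A), 14.6 (B), 14.4 (C), 12 (D) and 11.6 (E) CPM. The lowest supported lamb, E, was close to preterm lamb H, and the late preterm lambs overlapped the preterm ones.

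The difference between the later arms, supported against late preterm, was not the contrast that chose the gene. It was tested in the hippocampus, basal ganglia and cerebellum. The gene was picked as a steady riser to both later arms, so its motor cortex values in these arms served in that choice. The motor cortex difference is therefore given without a test. The difference between the later arms was not called in the hippocampus, basal ganglia or cerebellum. The test was the edgeR quasi-likelihood test with Benjamini-Hochberg adjustment over all tested genes at a threshold of 0.05. In the motor cortex the log2 fold change was 0.33 ± 0.36 (SE), and the 5 supported lambs at 10.1 to 27.2 CPM spanned both late preterm lambs. It was 0.0048 without lamb F and 0.74 without lamb G. With sex as a covariate, where male lamb C stands against the male lambs F and G, the value turned to -0.68. In that region 0% of 16173 genes were called by edgeR, with 2661 genes at an unadjusted p under 0.05, and DESeq2 called 605 genes. In the hippocampus the value was 0.74 ± 0.58 (edgeR adjusted p = 0.864), and it was -0.06 without lamb F and 2.71 without lamb G. With the hippocampus libraries that matched another region left out, lamb F alone stood for the late preterm arm, and the value was 2.59 ± 0.32 (SE, edgeR adjusted p = 0.502). In the full hippocampus fit 0% of 16370 genes were called by edgeR, with 796 at an unadjusted p under 0.05 and 23 called by DESeq2.

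In the basal ganglia the supported minus late preterm value was 0.67 ± 1.60 (SE, edgeR adjusted p = 0.866), where 0.288% of 16679 genes were called by edgeR and 1028 genes by DESeq2. It was 2.25 without lamb F, -0.06 without lamb G, -0.16 without lamb A and 0.99 without lamb B or D. In the cerebellum it was -0.18 ± 0.50 (edgeR adjusted p = 0.99999), where 0% of 16304 genes were called by edgeR, with 194 at an unadjusted p under 0.05 and 7 called by DESeq2. These misses do not show that the later arms were alike.

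The regions were also compared within each lamb. Pairs with the motor cortex over all lambs hold the low preterm values for which the gene was picked, so these are given without a test. The cerebellum was on average the lowest of the 4 regions, at 5.80 ± 2.38 CPM (SD, n = 9), against 15.0 ± 6.02 CPM in the hippocampus, 14.6 ± 9.23 CPM in the motor cortex and 13.0 ± 12.7 CPM in the basal ganglia. The region with the lowest value was the cerebellum in lambs A, C and E and the basal ganglia in lambs B, D and G, while it was the motor cortex in both preterm lambs and the hippocampus in lamb F. The region with the highest value was the motor cortex in lambs B, D, E and G, the basal ganglia in lambs A, C, F and H and the hippocampus in lamb I. No single order of regions therefore held across lambs, and the ratio of the highest to the lowest region ran from 4.92 in lamb F to 103 in lamb D.

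None of the 3 region pairs without the motor cortex passed the test with the lamb as a block (edgeR quasi-likelihood test, 9 lambs). That fit holds the libraries of all regions, so the preterm motor cortex values that chose the gene also enter its estimate of the spread. These misses are thus not free of that choice. On the log2 scale the hippocampus exceeded the cerebellum by 1.27 ± 0.66 (SE, edgeR adjusted p = 0.119) and was the higher one in 8 of 9 lambs, and 46.9% of all 17450 tested genes were called in this pair. The basal ganglia stood above the cerebellum by 1.04 ± 0.70 (edgeR adjusted p = 0.229), with the basal ganglia the higher one in 5 of 9 lambs and 45.6% of genes called. The hippocampus and basal ganglia differed by 0.23 ± 0.68 (edgeR adjusted p = 0.998, 0.0115% of genes called). The motor cortex was above the cerebellum in 7 of 9 lambs, by 1.24 ± 0.68. Hippocampus minus motor cortex was 0.03 ± 0.64 and motor cortex minus basal ganglia 0.21 ± 0.70. Each of the 3 pairs among hippocampus, motor cortex and basal ganglia changed sign with 1 or more lambs left out.

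An exact two-sided sign-flip permutation test of the within-lamb differences in log2(CPM + 1), added after the values were seen, gave p = 0.0117 for the hippocampus against the cerebellum. Adjusted over all 6 pairs this exact test gave 0.0703, and the smallest p that 9 lambs allow is 0.0039. Without the 9 libraries that matched another region better, the log2 fold changes against the cerebellum were 0.998 ± 1.02 (SE) for the hippocampus and 0.46 ± 1.06 for the basal ganglia, with edgeR adjusted p = 0.493 and 0.777, and 1.33 ± 0.78 for the motor cortex.

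The regions were then compared within each arm. The motor cortex values of the later arms also served in the choice of the gene, so pairs with the motor cortex are given without a test. In the supported lambs the motor cortex was above the cerebellum in 5 of 5 lambs, by 1.95 ± 0.83 (log2 fold change and SE). The hippocampus was above the cerebellum in 5 of 5 lambs, by 1.79 ± 0.83 (edgeR adjusted p = 0.0890). With all lambs in the fit, none of the pairs without the motor cortex was called in this arm. There 22.1% of the tests over all genes and all 6 pairs were called. Without lamb D, 2 of the 6 pairs of this arm were called for the gene, as given in the last section. Motor cortex minus cerebellum in the supported lambs ran from 1.77 to 2.21 with 1 lamb left out. It was 2.49 with the cerebellum of lambs D, G and H left out. In the late preterm lambs the motor cortex was above the cerebellum in both lambs, by 1.42 ± 1.29 (log2 fold change and SE). None of the pairs without the motor cortex was called in this arm, against 5.61% of tests over all genes and all 6 pairs. In the preterm lambs the motor cortex was the lowest region in both lambs. It differed from the cerebellum by -2.83 ± 1.55 (log2 fold change and SE) and from the basal ganglia by -3.79 ± 1.53, and hippocampus minus motor cortex was 3.41 ± 1.53. These rest on the values that chose the gene and are given without a test.

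**Figure D3:**
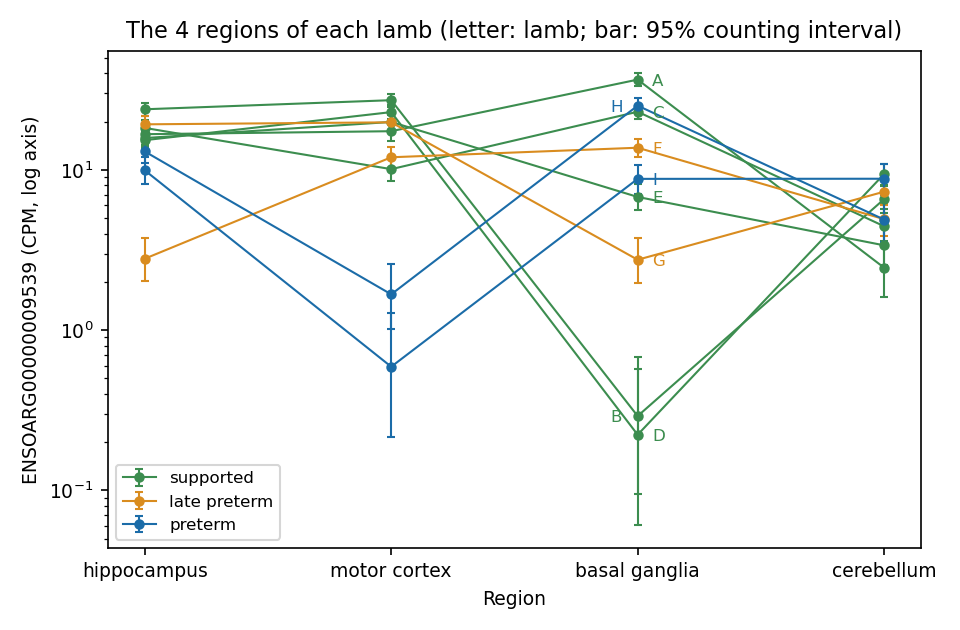
Level of ENSOARG00000009539 in CPM on a log axis (vertical) in the 4 regions (horizontal) of each lamb; each line is 1 lamb, coloured by arm and lettered at the basal ganglia, and bars are exact 95% binomial counting intervals. Preterm lambs H and I dip in the motor cortex to 1.67 and 0.591 CPM, and supported lambs B and D dip in the basal ganglia to 0.291 and 0.223 CPM.

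The order of the 12 means of arm and region ran from the supported motor cortex (19.5 CPM) and supported hippocampus (18.0 CPM) down to the supported cerebellum (5.25 CPM) and the preterm motor cortex (1.13 CPM). The step from the supported cerebellum to the preterm motor cortex, 4.12 CPM, was larger than the SD of either group. At each of the other 10 steps the gap between neighbours was at most 2.77 CPM and smaller than the larger SD of the 2 groups. The preterm motor cortex was thus the only mean that stood apart from its neighbour in this order, and it is the value for which the gene was picked.

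The spread between the supported lambs set this gene apart from most others in some regions. Over the 5 supported basal ganglia libraries the SD of log2(CPM + 1) was 2.31, against a median of 0.301 over 15301 genes with a mean of at least 1 CPM, and 99.9% of those genes had a smaller SD. The supported motor cortex had an SD of 0.512 (94.6% of 14885 genes smaller), the supported cerebellum 0.631 (95.04% of 14967 genes smaller) and the supported hippocampus 0.245 (48.0% of 15117 genes smaller). Over all 9 lambs, which also hold the differences between arms, other regions stood out. The shares of genes with a smaller SD were then 99.35% (basal ganglia), 99.85% (motor cortex), 58.3% (cerebellum) and 93.29% (hippocampus). Lambs B and D, with 5 and 4 reads in the basal ganglia, accounted for the low end there. Their exact 95% binomial intervals, 0.0945 to 0.679 and 0.0606 to 0.570 CPM, lay below the level of every other basal ganglia library. The same lambs were at 27.2 and 22.9 CPM in the motor cortex, the highest values of that region. These libraries were the lowest 2 of the 9 basal ganglia libraries for 1296 of 15295 genes (8.47%). Being at least 20-fold under the median of the other 7 basal ganglia libraries in both lambs was shared by 24 of these genes (0.157%), and both measures were set after the values were seen. Both libraries matched the basal ganglia profile best, with r = 0.43 and 0.382 across genes. Among the 9 basal ganglia libraries the gene correlated at r = 0.568 with the likeness of a library to the hippocampus profile and at -0.364 with its likeness to the basal ganglia profile. Whether the place where tissue was taken had a part in this spread was not tested.

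The genes most like it were sought by Pearson's r of log2(CPM + 1) over the 36 libraries among 15228 other genes with a mean of at least 1 CPM. These libraries share lambs, arms and depth, so r is a description. The median r over all genes was -0.042, 39 genes reached 0.6 or more and 12 reached -0.6 or less. The highest r belonged to ENSOARG00000003882 (0.734) and ENSOARG00000010642 (0.708), and the lowest to ENSOARG00000014174 (-0.713) and ENSOARG00000003557 (-0.674). After the mean of each of the 12 groups was taken off, r was 0.814, 0.694, -0.756 and -0.612 in that order. The highest r on that measure belonged to another gene, ENSOARG00000012915 (0.846). These values include the basal ganglia of lambs B and D.

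The likeness differed between regions. For ENSOARG00000003882 r was 0.819 among hippocampus, 0.801 among motor cortex and 0.809 among basal ganglia libraries but 0.105 in the cerebellum, over 9 libraries each. For ENSOARG00000010642 it was 0.936 for the motor cortex, 0.719 for the basal ganglia, 0.385 for the hippocampus and 0.265 for the cerebellum. Leaving out the basal ganglia libraries of lambs B and D, the 2 farthest from the median of the gene, lowered the 4 values over all regions to 0.588, 0.551, -0.589 and -0.647. The strongest values therefore rested in part on those libraries.

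ENSOARG00000003882 was far more even than the gene it resembles. In the motor cortex it was at 147 (H) and 131 (I) CPM in the preterm lambs, 158 (F) and 203 (G) CPM in the late preterm lambs and 177 to 210 CPM in the 5 supported lambs, so the preterm lambs were again the lowest 2. In the basal ganglia it was at 72.5 CPM in lamb B and 49.2 CPM in lamb D and at 131 to 225 CPM in the other 7 lambs. ENSOARG00000010642 was at 16.9 (H) and 19.4 (I) CPM in the preterm motor cortex and at 36.4 to 61.4 CPM in the motor cortex of the 7 later lambs. In the basal ganglia it was at 6.75 CPM in lamb B and 6.51 CPM in lamb D and at 25.2 to 67.3 CPM in the others. Both genes were lowest in the same motor cortex and basal ganglia libraries as ENSOARG00000009539, over a much narrower range. They were picked for their r over these same libraries, so the shared low values follow in part from that choice.

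**Figure D4:**
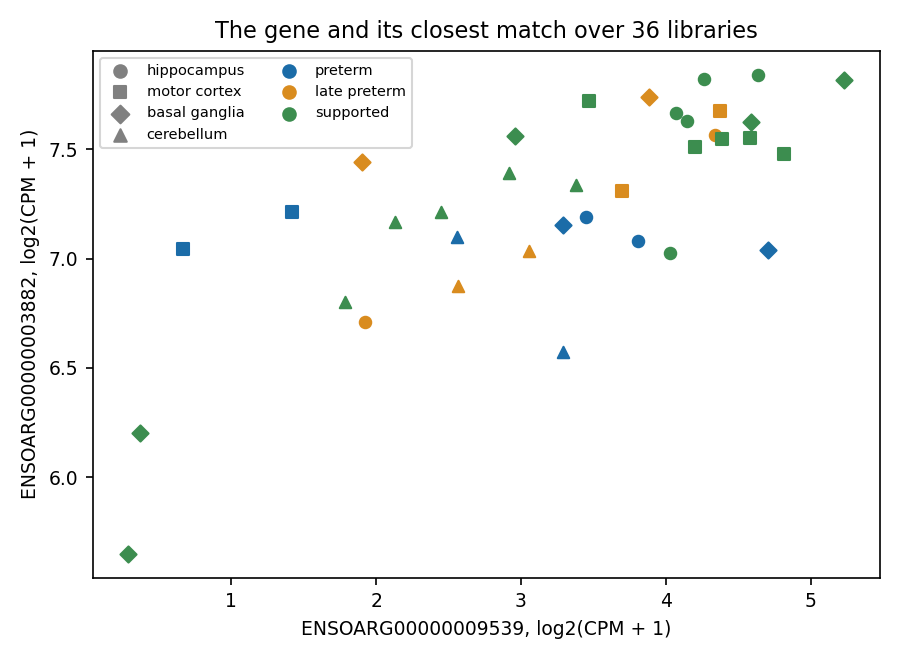
ENSOARG00000009539 (horizontal axis) against ENSOARG00000003882 (vertical axis), both as log2(CPM + 1), in the 36 libraries; shapes are regions and colours are arms. The basal ganglia libraries of supported lambs B and D lie apart at the lower left, and r is 0.734 with them and 0.588 without them.

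The genes of lowest r, picked over the same libraries, were higher in the preterm motor cortex. ENSOARG00000014174 was at 71.5 ± 0.819 CPM (SD, n = 2) in the preterm and 58.4 ± 4.18 CPM (n = 5) in the supported motor cortex. With TMM factors its r was -0.507 and it ranked 15138 of 15228, while ENSOARG00000003557 was at -0.621. ENSOARG00000003557 was at 11.1 ± 3.21 CPM (n = 2) in the preterm and 5.93 ± 1.001 CPM (n = 5) in the supported motor cortex. With Spearman's rho the 2 genes of highest r stood at 0.653 and 0.620, ranks 45 and 103, so which genes come first depends on the measure.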

How the data were processed

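The authors deposited raw read counts, whole numbers for each gene and library. Per the labels and the design text, they removed adapters with fastp, aligned paired reads to the sheep genome of Ensembl release 107 with STAR and kept its unstranded gene counts. Versions and assembly are not stated there. No identifier (0) was found in the reference table of 35057 genes.

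Arm, region and lamb came from the labels, and columns were assigned by name. The gene, contrasts and lists were chosen with earlier results of these data known. CPM used library totals. Tests used edgeR 4.0.16 in R 4.3.3 (TMM factors, filterByExpr, quasi-likelihood F-test), with DESeq2 1.42.0 as an alternative. Arms were compared in a separate fit for each region (9 libraries). Region pairs came from 1 fit of the 36 libraries that kept the lamb as a block, since the regions are of the same animal. As a check of this pairing, the deviations of a lamb's libraries had mean correlations between 0.112 and 0.242. The SE of a fold change was derived from the F statistic. Genes named for likeness were the 2 highest and 2 lowest by r. The procedure was tested on simulated counts. For supported against late preterm lambs, 2-fold rises were found in 22% (hippocampus), 71% (motor cortex), 8% (basal ganglia) and 2% (cerebellum) of changed genes. For 4-fold rises these shares were 79%, 94%, 70% and 48%. The changed genes were drawn at random and kept their own spread, so these shares do not give the power for ENSOARG00000009539. Its SD in the supported basal ganglia was above that of 99.9% of genes. Cell type marker lists were not used, for want of symbols. P-values of arm comparisons measure the spread between lambs. Those of region pairs, with the lamb as a block, measure how the differences between regions vary from lamb to lamb.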

Additional observations from a re-analysis of the deposited data

Results flagged for a closer look

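In ENSOARG00000009539 the difference between motor cortex and cerebellum within a lamb, as log2(CPM + 1), pointed one way in every lamb of an arm and the other way in every lamb of another. The mean was -1.88 in the 2 preterm lambs, 1.23 in the 2 late preterm lambs and 1.76 in the 5 supported lambs. The difference between hippocampus and motor cortex did so between the preterm lambs, at 2.59, and the late preterm lambs, at -0.91. These differences between arms were not tested, and they rest on the low preterm motor cortex for which the gene was picked.

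In 2 groups of 5 supported lambs a single library lay far from the rest. For ENSOARG00000003882 in the motor cortex the gap from lamb C (210 CPM) to the next lamb made up 0.711 of the range. For ENSOARG00000010642 in the cerebellum lamb D, at 40.4 CPM, was separated from the next by 0.747 of the range. The critical value is 0.71 for 5 samples, and chance flags about 1 in 20 such groups. The check covered ENSOARG00000009539 and all genes named for likeness in every region, and ENSOARG00000009539 over the regions together.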

How the results depend on the processing

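Leaving out 1 lamb at a time gave log2 fold changes of 3.57 to 5.10 for supported and 3.24 to 4.77 for late preterm against preterm lambs in the motor cortex, -2.06 to 0.72 for late preterm against preterm lambs in the hippocampus, and, for supported against late preterm lambs, 0.0048 to 0.74 in the motor cortex, -0.062 to 2.71 in the hippocampus, -0.16 to 2.25 in the basal ganglia and -0.50 to 0.12 in the cerebellum. Region pairs over all lambs then ran from -0.056 to 0.54 for hippocampus minus basal ganglia, -0.13 to 0.17 for hippocampus minus motor cortex and -0.13 to 0.60 for motor cortex minus basal ganglia, and the supported arm had 0 to 2 of 6 pairs called (2 without lamb D). The depth group as a term turned supported against late preterm to -0.16 in the basal ganglia and 0.0042 in the cerebellum, and moved the difference of late preterm from preterm lambs to 1.36 and -1.65 in these regions and that of supported from preterm lambs to -1.65 in the cerebellum. In each case the depth term rests on lamb A against the other supported lambs. Sex as a covariate gave -0.68 for supported against late preterm and 4.53 for late preterm against preterm lambs in the motor cortex. Hippocampus minus motor cortex was -0.33 without the libraries that matched another region better, an alternative added after the data were seen. With no replicate block, with DESeq2 and with the cerebellum of lambs D, G and H left out, 1 of 6 pairs was called in the supported arm. That pair, motor cortex against cerebellum, was also among the 2 called without lamb D. It holds values that chose the gene, so nothing is read from its calls. The cause of these changes was not tested. Counts as low as 4 to 20 reads limit the precision of the preterm motor cortex and of the basal ganglia of lambs B and D.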
